A study of Glycine max with 36 samples.

Results

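Leaves sprayed with atrazine were compared with leaves sprayed with bentazon 8 h after the spray, on the 3 two-colour cDNA arrays of 36 in the series on which both RNAs were hybridised together. Of 19200 probes on the array, 18366 had a value on at least 2 of these 3 arrays (17210 on all 3), 231 had 1 value and 603 had none. Plants were soybean cultivar Williams 82 of about 2 weeks, grown at 25 °C with 16 h days, and each RNA came from 3 leaflets of the first trifoliate, pooled. The groups used were atrazine at 8 h, bentazon at 8 h, the same herbicides at 1, 2 and 4 h, and water at 8 h. Water at 1, 2 and 4 h entered only through the model of all 36 arrays. Herbicide was sprayed as a mist at 22 to 25 mM, a range recorded for both herbicides together. A 1% adjuvant is recorded for the water spray only, so that adjuvant or dose cannot be told apart from the herbicide. The labels call the 3 replicates biological without naming separate sowings, so the p-values measure the spread between these samples, which may be partly technical. On all 3 direct arrays atrazine RNA carried Cy5 and bentazon RNA Cy3.

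Atrazine, a triazine, and bentazon, a benzothiadiazinone, both block photosystem II by taking the place of plastoquinone at the D1 protein, which stops electron flow and leaves absorbed light energy to form reactive oxygen species. They differ in ring system and in how crops handle them. Soybean tolerates bentazon because it hydroxylates the ring and joins it to glucose, whereas atrazine, which some grasses detoxify by coupling it to glutathione, injures soybean.

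Each deposited value is a log ratio, taken here as log2, and the files do not say which RNA is the numerator. Values are printed as atrazine minus bentazon on the reading that array titles name the numerator first. If they do not, every sign below turns, so no direction of expression is called. Positive values are called the PR-10 side and negative values the GSTL3 side, after the named gene with the largest value on each. Ratios hold no transcript level, so leaf markers could not be used to check the tissue, and in whole leaflets a change in cell number and a change in RNA per cell cannot be told apart.

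The third replicate stood apart before any gene was considered. Its values had an SD over probes of 0.744, against 0.4997 and 0.519 for replicates 1 and 2, and 12.1% of them were above 1 in size, against 4.26% and 5.19%. Replicates 1 and 2 correlated at r = 0.589 over probes, replicates 1 and 3 at 0.366 and replicates 2 and 3 at 0.215, and probes share array and dye. The median SD of a probe over the 3 direct arrays was 0.316, within the medians of 0.286 to 0.381 for the other 11 array types.

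The herbicides differed at 8 h for 1066 of 17062 probes tested, or 6.25%, in a linear model of all 36 arrays (limma, Benjamini-Hochberg adjusted p under 0.05). The arrays form a closed loop of 12 RNAs, which lets the model hold 1 dye term beside the RNA differences; its estimates are called loop values here. The called probes split into 536 on the PR-10 side (3.14% of all tested) and 530 on the GSTL3 side (3.11%). Of the called probes, 1039 had the same sign on each direct array with a value. The loop value is made mostly of these arrays, so the choice of called probes largely sets this agreement. A size of at least 1 was reached by 472 of the called probes (2.77% of all tested), 260 on the PR-10 side and 212 on the GSTL3 side. The 3 direct arrays by themselves, tested against 0 with limma, gave 5 calls of 18366 probes, or 0.0272%, 4 on the PR-10 side and 1 on the GSTL3 side, with 2819 probes (15.3%) at an unadjusted p under 0.05. All 5 of those probes are unnamed. With each replicate's loop solved alone and the 3 solutions tested, no probe was called by limma, and 2359 had an unadjusted p under 0.05. The calls below therefore rest on a spread estimated from all 12 array types.

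Among probes with all 3 direct values, 121 (0.703%) were above 1 on every array and 53 (0.308%) were below -1 on every array. On one side of 0 on all 3 arrays lay 7019 of 17210 probes (40.8%). Of 1054 called probes with 3 values, 292 had their largest size on replicate 1, 249 on replicate 2 and 513 on replicate 3.

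Gene names are listed for 1158 single-gene probes of 527 genes; 780 tested probes carry a name beyond a placeholder. Of these 780, 93 (11.9%) were called, 34 on the PR-10 side and 59 on the GSTL3 side, from 61 genes. The named genes below are the 12 with the largest loop value on each side.

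**Figure D1:**
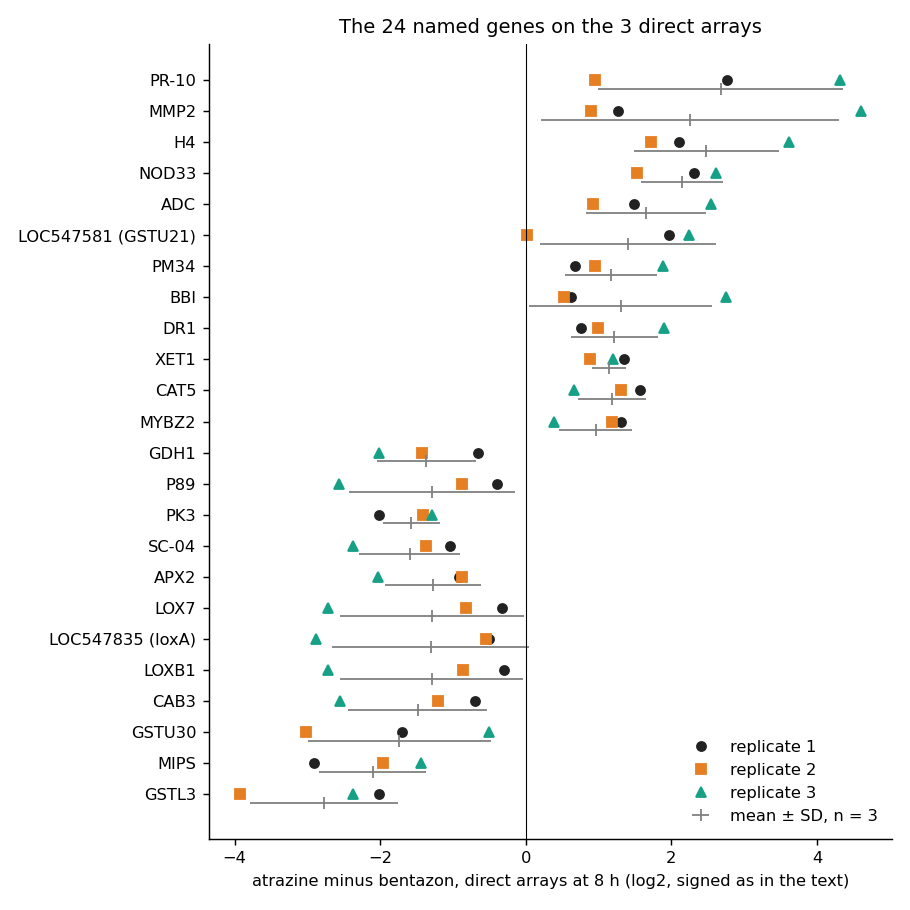
Log2 values of the 24 named genes on the 3 direct arrays at 8 h, signed as in the text, with the mean and SD of the 3 replicates under the points. The points of H4, NOD33, CAB3, GSTL3 and APX2 lie clear of 0 on each array, and for 7 of the 12 genes on each side the call was lost without replicate 3.

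Histone H4, a core protein of the nucleosome, and NOD33 kept their calls on the PR-10 side whichever replicate was left out. The H4 probe had values of 2.10, 1.72 and 3.61 on direct replicates 1, 2 and 3. Its loop value was 2.36 ± 0.47 (SE, limma adjusted p = 0.00147), and the adjusted p was 0.0241, 0.00472 and 0.0463 without replicate 1, 2 and 3. Replicate 3 was the highest and all 3 lay above 1.5. Of 5 H4 probes tested, 4 were called, with values from 2.23 to 2.36, and the remaining probe had 0.33. NOD33, named from root nodules, had 2.31, 1.53 and 2.61 on the direct arrays and a loop value of 2.07 ± 0.305 (limma adjusted p = 4.46e-05). The 3 arrays lay close together, and all 3 probes of NOD33 were called, the others at 1.46 and 1.42.

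PR-10 and MMP2 had the largest named values on this side, and their replicates spread widely. PR-10, a pathogenesis-related protein also known as SAM22, had 2.76, 0.95 and 4.32 on the direct arrays. Replicate 2 was far below the others, although none crossed 0. The loop value was 2.73 ± 0.63 (limma adjusted p = 0.00637), and its second probe was called at 2.64. Without replicate 1 it was 2.67 (adjusted p = 0.108) and without replicate 3 it was 1.92 (adjusted p = 0.159). MMP2, a matrix metalloproteinase of the extracellular space, had 1.26, 0.89 and 4.61, so that replicate 3 alone was above 1.5. Its loop value of 2.39 ± 0.59 (limma adjusted p = 0.0124) became 1.22 without replicate 3 (adjusted p = 0.184) and 2.81 without replicate 1 (adjusted p = 0.0814). The 3 other probes of BBI, the Bowman-Birk inhibitor of trypsin and chymotrypsin, lay between -0.08 and 0.36 without a call. The called BBI probe had 0.62, 0.53 and 2.75 and likewise rested on replicate 3. Its loop value was 1.25 ± 0.337 (limma adjusted p = 0.0225), against 1.54, 1.65 and 0.55 without replicate 1, 2 and 3, none of them called (adjusted p = 0.0834, 0.051 and 0.273).

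The remaining 7 named genes on the PR-10 side had smaller values. XET1, a xyloglucan endotransglycosylase that rearranges cell wall polymers, had 1.34, 0.89 and 1.19, the closest agreement between replicates among these genes. Its loop value was 1.13 ± 0.287 (limma adjusted p = 0.0145), and its other probe was called at 1.06. CAT5, a catalase that breaks down hydrogen peroxide, had 1.56, 1.31 and 0.67, and the MYB transcription factor gene MYBZ2 had 1.30, 1.18 and 0.39, so that both were lowest on replicate 3. Their loop values were 1.05 ± 0.215 for CAT5, whose other probe lay at -0.15, and 1.05 ± 0.207 for MYBZ2. The other MYBZ2 probe lay at 0.14 and was not called. ADC, arginine decarboxylase of polyamine synthesis, had 1.49, 0.93 and 2.54 and a loop value of 1.43 ± 0.332. The 2 other ADC probes, at 1.10 and 0.23, were not called. The tau-class glutathione transferase gene GSTU21 (LOC547581) had 1.97, 0.02 and 2.24, with replicate 2 at about 0. Its loop value of 1.34 ± 0.397 was called (limma adjusted p = 0.0374, and 0.055 with a robust prior), 2 further probes at 1.67 and 1.70 were not, and the remaining probe lay at -0.01. DR1 (1.21 ± 0.306, 3 of 4 probes called) and the seed maturation gene PM34 (1.30 ± 0.404) complete the 12. The PM34 call (limma adjusted p = 0.0484) was lost with the replicate block (adjusted p = 0.0622), without the dye term (0.0509), with a robust prior (0.0713) and with generalised least squares (0.0534), and a different PM34 probe was called on the opposite side at -0.99. Without replicate 1 none of these 7 genes was called, at 0.997 for XET1, 0.83 for CAT5, 0.86 for MYBZ2, 1.48 for ADC, 1.00 for GSTU21, 1.46 for DR1 and 1.56 for PM34. Calls were also lost without replicate 2 for XET1 (1.18, adjusted p = 0.051), DR1 (1.33) and PM34 (1.40), and without replicate 3 for ADC (1.04), GSTU21 (0.90), DR1 (0.83) and PM34 (0.94), whereas GSTU21 had 2.13 without replicate 2. Of the 12 calls on the PR-10 side, 2 were kept without replicate 1, 8 without replicate 2 and 5 without replicate 3.

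The lambda-class glutathione transferase gene GSTL3 had the largest named value on its side, with -2.01, -3.92 and -2.37 on direct replicates 1, 2 and 3. All 3 arrays lay beyond -2, replicate 2 farthest. The loop value was -2.83 ± 0.326 (limma adjusted p = 1.09e-06) and stayed called without each replicate, between -3.15 and -2.24. The other GSTL3 probe, at -0.28, was not called. GSTU30, of the tau class, had -1.70, -3.02 and -0.50, with replicate 3 nearest 0. Its loop value was -1.66 ± 0.394 (limma adjusted p = 0.00833), against -1.59 without replicate 1 (adjusted p = 0.167) and -1.05 without replicate 2 (adjusted p = 0.185), and its other probes lay at 0.57 and 0.36. PDR12, named as a pleiotropic drug resistance pump of the ABC family, had -0.18, -1.83 and -0.05 and a loop value of -0.71 ± 0.436 that was not called (limma adjusted p = 0.383). Replicate 2 was the only direct array on which PDR12 exceeded 1 in size.

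CAB3, which holds antenna chlorophyll and passes light energy to the photosystems, lay on the GSTL3 side with 5 of its 6 probes called, at -1.63 to -1.33. The probe with the largest size had -0.70, -1.20 and -2.55 on the direct arrays. Replicate 3 was the most negative and no array crossed 0. Its loop value was -1.63 ± 0.239 (limma adjusted p = 4.46e-05), and -1.04 without replicate 3 (adjusted p = 0.00409). The remaining CAB3 probe had -0.26. CHLH, the large subunit of the magnesium chelatase that opens chlorophyll synthesis, had -0.59, -0.95 and -1.29 and a loop value of -1.07 ± 0.299 (limma adjusted p = 0.0271). Without replicate 1 or 3 CHLH was not called, at -1.25 (adjusted p = 0.146) and -0.93 (adjusted p = 0.17).

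Of 34 lipoxygenase probes tested, 10 were called on the GSTL3 side and 1 on the PR-10 side, beside 6.25% called over all probes. Lipoxygenases add oxygen to polyunsaturated fatty acids at the start of oxylipin and jasmonate synthesis. The called probes belonged to LOXB1, loxA, LOX7, VLXB and VLXC, while none of the 12 probes of LOX1.1, LOX2 and LOX3 was called (-0.74 to 0.50). LOXB1 had -0.30, -0.87 and -2.71 on the direct arrays, loxA (LOC547835) had -0.50, -0.55 and -2.87, and LOX7 had -0.32, -0.82 and -2.72. In each of the 3 genes replicate 3 was more than 1.5 beyond the others. Loop values were -1.52 ± 0.353 for LOXB1, -1.42 ± 0.342 for loxA and -1.38 ± 0.372 for LOX7 (limma adjusted p = 0.00693, 0.00994 and 0.0225). Without replicate 3 they were -0.81, -0.62 and -0.64, none called (adjusted p = 0.19, 0.256 and 0.375). The calls of loxA without replicate 1 (-1.84, adjusted p = 0.0537) and of LOX7 without replicate 2 (-1.57, adjusted p = 0.0718) were lost as well. Called probes numbered 4 of 8 for LOXB1, 3 of 6 for loxA and 2 of 3 for LOX7. Of the uncalled LOXB1 probes 3 lay on the PR-10 side, up to 0.49, and cDNA probes of this family can share transcripts. VLXB, another vegetative lipoxygenase, was called on the opposite side at 1.09, against -1.12 for VLXC. The probe annotated P89 (-1.30) holds the same value as a LOXB1 probe on all 36 arrays, so that which gene it measures is not settled; it was not called without replicate 1 (-1.70) or 3 (-0.65), with the replicate block (adjusted p = 0.0525) or with a robust prior (adjusted p = 0.0586).

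MIPS, myo-inositol-3-phosphate synthase at the entry to inositol synthesis, had all 4 of its probes called, at -2.16 to -1.54. The direct values of the largest were -2.90, -1.97 and -1.44, in this gene with replicate 3 nearest 0. The loop value was -2.16 ± 0.402 (limma adjusted p = 0.000676), and -1.77 without replicate 1 (adjusted p = 0.11). APX2, an ascorbate peroxidase that reduces hydrogen peroxide, had -0.91, -0.87 and -2.03 and a loop value of -1.35 ± 0.236 (limma adjusted p = 0.00032), called without each replicate in turn. Its relative APX1 had 3 of 4 probes called, at -1.07 to -0.90, and the remaining probe at 1.47 that rested on a value of 3.91 on replicate 3 and was not called. GDH1, glutamate dehydrogenase, had -0.66, -1.42 and -2.02 and a loop value of -1.30 ± 0.316. Its 3 other probes lay between -0.003 and 0.30 and were not called. SC-04 (-1.35 ± 0.299) and the protein kinase gene PK3 (-1.34 ± 0.314) were also called. The 2 other PK3 probes, at -0.32 and -0.21, were not called. Calls were lost without replicate 1 for PK3 (-1.11) and APX1 (-0.89), without replicate 2 for GDH1 (-1.30), and without replicate 3 for GDH1 (-0.91), SC-04 (-0.97) and PK3 (-1.37). Of the 12 calls on the GSTL3 side, 7 were kept without replicate 1, 9 without replicate 2 and 5 without replicate 3.

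**Figure D2:**
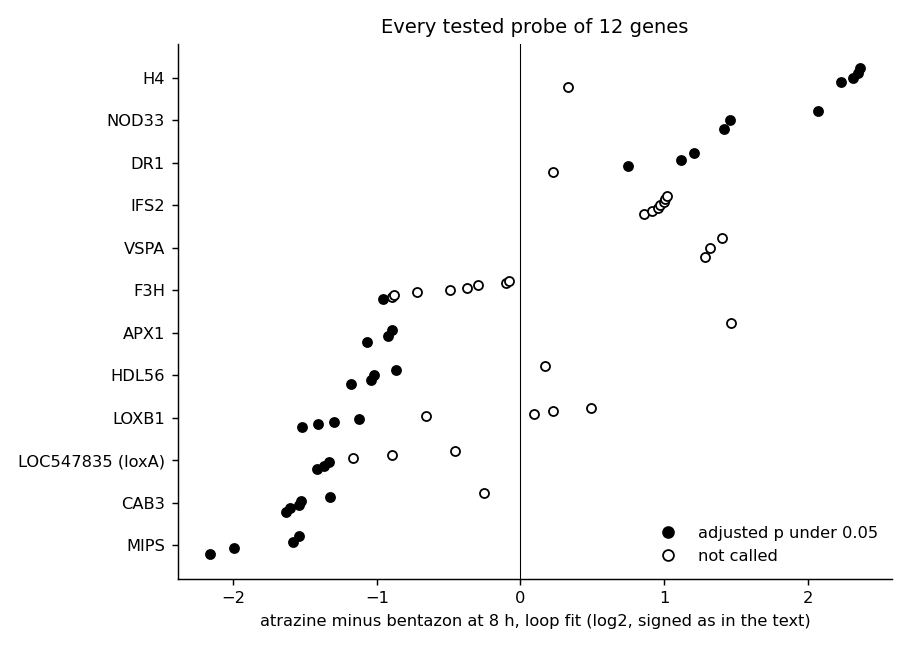
Loop values (log2, signed as in the text) of every tested probe of 12 genes, filled where the limma adjusted p was under 0.05. All 4 MIPS probes and all 3 NOD33 probes are filled, while the 7 IFS2 and 3 VSPA probes sit together on the PR-10 side without a call.

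Each herbicide was then set beside water at 8 h. Bentazon met water directly on 3 arrays, whereas the atrazine value against water runs through the bentazon RNA and adds the comparison above to it, so the 3 values of a gene are not independent. Against water 1995 probes (11.7%) were called for atrazine and 2774 (16.3%) for bentazon. Over the called probes on the PR-10 side, the median was 1.15 for atrazine minus water and 0.15 for bentazon minus water. On the GSTL3 side the medians were -0.99 for atrazine minus water and -0.14 for bentazon minus water. Called probes and named genes were chosen by the size of atrazine minus bentazon, which is part of atrazine minus water. Medians farther from 0 for atrazine are therefore partly set by that choice.

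**Figure D3:**
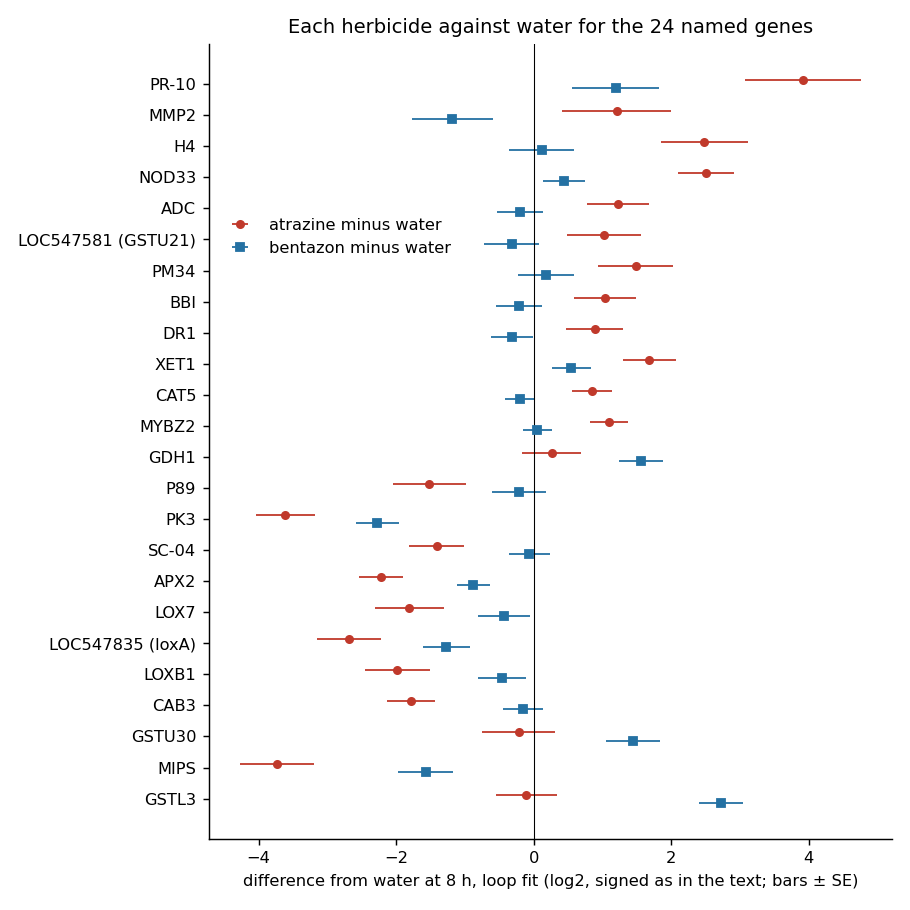
Loop values of atrazine minus water and bentazon minus water at 8 h for the 24 named genes, with SE bars (log2, signed as in the text). GSTL3 and GSTU30 are near 0 for atrazine and positive for bentazon, whereas H4, NOD33 and CAB3 are away from 0 for atrazine and near 0 for bentazon.

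Against water each gene is given by its probe with the largest size between the herbicides. For H4, atrazine minus water was 2.48 ± 0.635 (limma adjusted p = 0.008) and bentazon minus water 0.12 ± 0.471. NOD33 had 2.51 ± 0.412 (limma adjusted p = 8.65e-05) for atrazine and 0.44 ± 0.305 for bentazon. CAB3 had -1.78 ± 0.353 (limma adjusted p = 0.000798) for atrazine and -0.15 ± 0.288 for bentazon. These 3 genes thus passed the test against water after atrazine only, with bentazon adjusted p values of 0.9, 0.355 and 0.773. GSTL3 had the opposite arrangement, with -0.10 ± 0.439 for atrazine and 2.73 ± 0.326 (limma adjusted p = 2.75e-06) for bentazon. GSTU30 had -0.22 ± 0.531 for atrazine and 1.45 ± 0.394 (limma adjusted p = 0.0119) for bentazon, and GDH1 had 0.26 ± 0.428 for atrazine and 1.56 ± 0.316 (limma adjusted p = 0.00136) for bentazon.

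Several genes were called for both herbicides on one side of water, with a larger size after atrazine. MIPS had -3.73 ± 0.542 after atrazine and -1.57 ± 0.402 after bentazon. PK3 had -3.61 ± 0.424 after atrazine and -2.27 ± 0.314 after bentazon. The same held for loxA, with -2.68 ± 0.461 after atrazine and -1.27 ± 0.342 after bentazon, and for APX2, with -2.22 ± 0.318 after atrazine and -0.88 ± 0.236 after bentazon. All 8 values passed the limma test, and the largest of their adjusted p values was 0.0113. MMP2 lay on opposite sides of water, at 1.21 ± 0.8 after atrazine and -1.18 ± 0.593 after bentazon, and neither value passed the test.

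Gene lists by pathway put these members beside their neighbours. Over all 17062 tested probes the median loop value was -0.01 and 6.25% were called, and over the named probes 11.9% were called. Among the light reactions, 5 of 11 probes (45.5%) were called, all of them CAB3 on the GSTL3 side, and the list median was -0.60. The early light-induced gene ELIP (-0.60) and the photosystem I gene PSAD (-0.47 to 0.14 over 3 probes) were not called. LHCP (LOC547819), also on this list, lay at 0.03 on its 1 tested probe and was not called either. The redox list had 9 calls of 24 probes (37.5%), 7 on the GSTL3 side and 2 on the PR-10 side, with a median of -0.16. Besides the ascorbate peroxidases, the 7 held the peroxidase genes PRX2 (-1.01) and PRX2B (-0.88 and -0.75), and with CAT5 on the other side stood GR, glutathione reductase (0.68). The lipoxygenase, jasmonate and ethylene list had 11 calls of 51 probes (21.6%), 10 on the GSTL3 side, all lipoxygenases, and a median of -0.02.

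**Figure D4:**
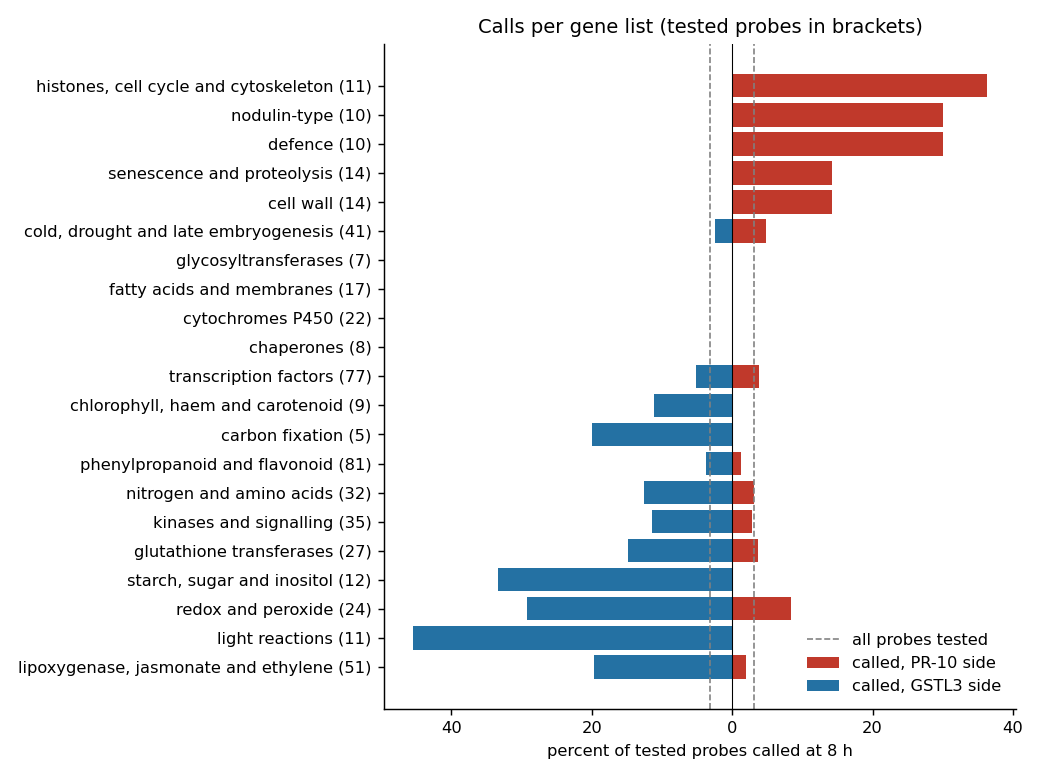
Share of tested probes called at 8 h in each gene list of at least 5 tested probes, PR-10 side to the right and GSTL3 side to the left, with dashed lines at the shares over all 17062 tested probes. Lists with few probes reach high shares through several probes of 1 gene, as CAB3 does for the light reactions.

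Glutathione transferases divided between the sides, with 4 calls on the GSTL3 side and 1 on the PR-10 side among 27 probes (18.5% called) and a median of -0.01. Beside GSTL3 and GSTU30, GSTF5 (-1.004) and GSTa (-0.79) were called. In the defence list 3 of 10 probes (30.0%) were called, the PR-10 pair and MMP2, and the Kunitz trypsin inhibitor genes KTI-2 (-0.72) and KTI3 (-0.53) were not, giving a median of 0.02. Histones, cell cycle and cytoskeleton had 4 calls of 11 probes (36.4%), all H4, while CDC48, TUBB3 and PCNA lay between -0.34 and 0.18 without a call. Starch, sugar and inositol had 4 calls of 12 probes (33.3%), all MIPS, and a median of -0.15.

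The nitrogen and amino acid list had 5 calls of 32 probes (15.6%). GS1GAMMA2, a cytosolic glutamine synthetase that joins ammonium to glutamate, was called on the PR-10 side with direct values of 0.82, 0.96 and 0.93. Its 3 arrays differed little, its loop value was 1.00 ± 0.177 (limma adjusted p = 0.000341), and it stayed called without each replicate. On the GSTL3 side lay GDH1, AAT (-0.79) and 2 CGS2 probes (-0.90 and -0.59). Transcription factors had 7 calls of 77 probes (9.09%), of which 4 were HDL56, a homeodomain leucine zipper gene, at -1.18 to -0.86 on the GSTL3 side. MYBZ2, BZIP117 (0.89) and MYB175 (0.70) lay on the PR-10 side. HDL56 was not called without replicate 1 (-1.28) or 3 (-0.66), CGS2 without replicate 1 (-0.97) or 3 (-0.74), and BZIP117 without replicate 1 (0.75) or 2 (0.74), with the replicate block (adjusted p = 0.0504), without the dye term (0.0509) or with generalised least squares (0.056).

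In the phenylpropanoid and flavonoid list 4 of 81 probes (4.94%) were called, under the 6.25% over all probes, so the share called does not set the list apart, and the median was -0.05. CHR1, the chalcone reductase of the deoxy isoflavonoid branch, was called on the PR-10 side at 1.03 ± 0.279, with direct values of 1.61, 0.70 and 1.33. Its 4 other probes lay on both sides, between -0.51 and 0.47, and were not called. F3H, flavanone 3-hydroxylase at the step toward flavonols and anthocyanins, had all 9 probes on the GSTL3 side, between -0.96 and -0.08, and 1 of them called (adjusted p = 0.0534, not called, with generalised least squares). The 4-coumarate:CoA ligase genes 4CL4 (-1.14 ± 0.321) and 4CL3 (-0.80) were called on the same side as F3H. The 2 other 4CL4 probes, at -0.46 and -0.17, were not called. Calls were lost without replicate 1 for CHR1 (0.80), F3H (-0.74) and 4CL4 (-0.78), without replicate 2 for F3H (-0.82) and without replicate 3 for CHR1 (0.99). None of the 22 cytochrome P450 probes was called, 16 of them positive, with a median of 0.37. Among these, the 7 probes of isoflavone synthase IFS2 lay between 0.86 and 1.02, and the one with the largest value had 0.31, 0.03 and 2.65 on the direct arrays, above 1 on replicate 3 only. No call was made among 17 fatty acid and membrane probes (median -0.10) or 8 chaperone probes, all 8 of which were positive with a median of 0.28.

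Some genes had large values that did not hold over the replicates. VSPA, a vegetative storage protein that responds to jasmonate, had 2.65, 2.55 and -1.22, so that replicate 3 took the opposite side, and its loop value of 1.40 ± 0.743 was not called (limma adjusted p = 0.297). VPE2, a vacuolar processing protease, had 0.91, 0.98 and 3.65 and a loop value of 1.67 ± 0.871. SARK, a senescence-associated receptor kinase, was called at 0.87 on one probe (0.95 without replicate 1 and 0.42 without replicate 3, neither called, and adjusted p = 0.0504 with the replicate block), and a second probe with -1.40, -2.97 and -0.17 had a loop value of -1.39 ± 0.454 (limma adjusted p = 0.0621). These 2 of the 3 tested SARK probes took opposite sides, and the remaining probe, at -0.36 on the GSTL3 side, was not called. The second SARK probe was most negative on replicate 2, as GSTL3, GSTU30 and PDR12 were.

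Whether the herbicides differed at 8 h by as much as earlier was tested in the same model. The difference at 8 h was unlike that at 4 h for 499 probes (2.92%), 309 toward the PR-10 side (1.81%) and 190 toward the GSTL3 side (1.11%). Against 2 h the count was 1600 (9.38%) and against 1 h 632 (3.7%). These tests share the 8 h arrays and are not independent.

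**Figure D5:**
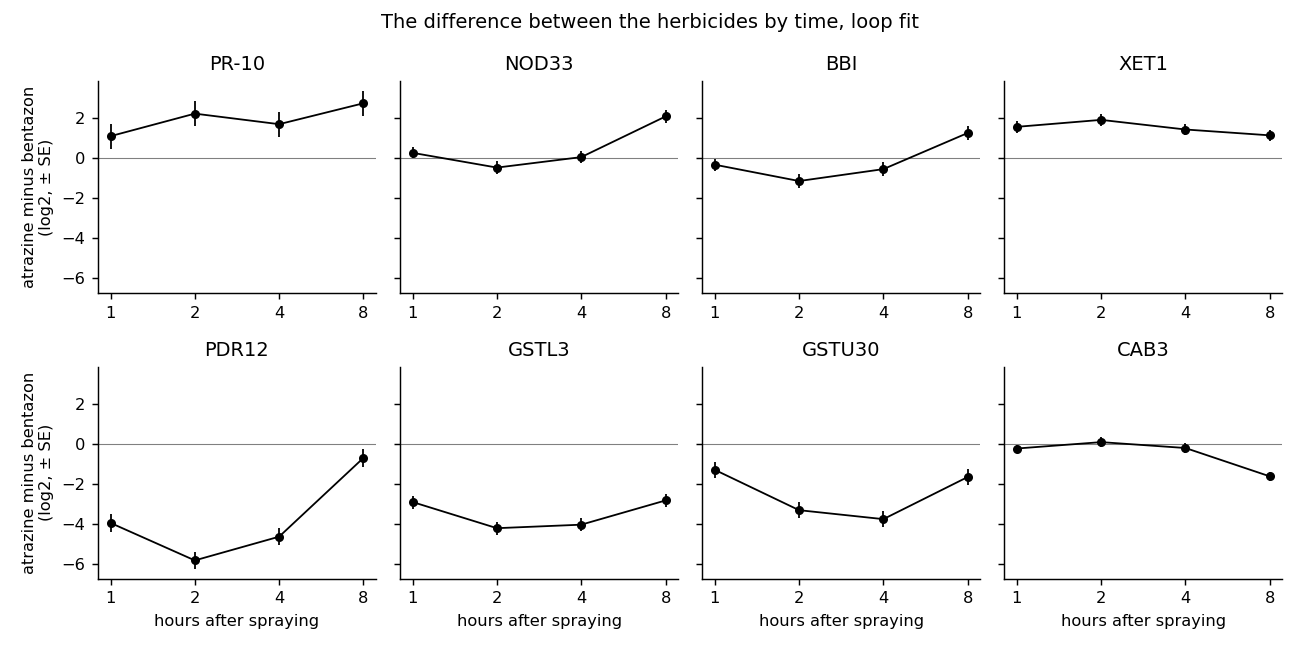
Loop values of atrazine minus bentazon at 1, 2, 4 and 8 h for 8 genes, with SE bars (log2, signed as in the text). PDR12 and GSTU30 come nearer to 0 at 8 h than at 4 h, and NOD33 and CAB3 have their largest size at 8 h. BBI goes from negative values at 2 h, which was called, and at 4 h, which was not, to a positive one at 8 h. PR-10, XET1 and GSTL3 keep their side at every time, though PR-10 was not called at 1 or 4 h.

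PDR12 had -3.95, -5.82 and -4.64 at 1, 2 and 4 h and -0.71 at 8 h, and the step between 4 and 8 h was 3.93 ± 0.643 (limma adjusted p = 0.002, and 0.217 without replicate 1, at 3.06). GSTU30 had -1.30, -3.32 and -3.76 before -1.66 at 8 h, a step of 2.10 ± 0.582 (limma adjusted p = 0.0424), which was not called without replicate 1 (1.79, adjusted p = 0.506) or replicate 3 (1.61, adjusted p = 0.191), with the replicate block (adjusted p = 0.0541), with scaled arrays (1.61, adjusted p = 0.136) or with a robust prior (adjusted p = 0.0577). GSTL3, with -2.91, -4.21, -4.04 and -2.83, kept its side at all times, and its step between 4 and 8 h was not called (limma adjusted p = 0.172). The GSTL3 difference between 8 h and 2 h was called, at 1.38 ± 0.439 (limma adjusted p = 0.0416).

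NOD33 had 0.26, -0.48 and 0.05 before 2.07 at 8 h, a step from 4 h of 2.03 ± 0.451 (limma adjusted p = 0.0143). CAB3 had -0.24, 0.08 and -0.22 before -1.63, a step of -1.41 ± 0.352 (limma adjusted p = 0.0253), and BBI -0.33, -1.15 and -0.55 before 1.25, a step of 1.80 that was not called with the replicate block (adjusted p = 0.055). At 2 h BBI was called on the GSTL3 side (limma adjusted p = 0.0253). Its difference between 8 h and 2 h was 2.39 (limma adjusted p = 0.000942). The steps of NOD33, CAB3 and BBI were not called without replicate 1 (1.74, -1.92 and 1.75, with adjusted p = 0.416, 0.232 and 0.405). They were also lost without replicate 2 for CAB3 (-1.59) and BBI (2.09) and without replicate 3 for NOD33 (1.44) and CAB3 (-0.73). By contrast, PR-10 (1.09, 2.21, 1.69 and 2.73), H4 (0.63, 0.72, 1.97 and 2.36) and XET1 (1.55, 1.90, 1.42 and 1.13) lay on the PR-10 side at all 4 times. Only XET1 among them was called at each time. PR-10 was not called at 1 or 4 h (limma adjusted p = 0.367 and 0.08). H4 was not called at 1 or 2 h (limma adjusted p = 0.528 and 0.4). MIPS had 0.10, -1.10, -0.90 and -2.16, and the difference between 8 h and 1 h was called (limma adjusted p = 0.014).

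The rest of the loop gives a second route between the same RNAs, through the 33 arrays outside the direct comparison, with a median SE of 0.736 against 0.212 for the loop value. This route was fitted without a dye term, which these arrays cannot separate, so a dye effect of a probe adds up in its values. How much of the difference between the routes is dye was not tested. Both routes use the 8 h extracts, and the loop value holds a small share of the indirect one, so they are not independent. Over all 17062 probes the indirect values correlated with the direct means at r = 0.174, and 52.1% took the same side, as a description of probes that share extracts and arrays. Of 1066 called probes 845 (79.3%) had an indirect value on the side of the loop value, as did 20 of 24 named genes. The called probes were chosen by the loop value, which holds some of the indirect one, so this share is partly set by that choice. By the indirect route 0 of the 12 calls on the PR-10 side were kept, and 2 of the 12 on the GSTL3 side, CAB3 and LOXB1. GSTL3 had -3.50 ± 1.05, CAB3 -3.24 ± 0.719, LOXB1 -4.04 ± 1.09 and MIPS -2.78 ± 1.38 by this route, and H4 1.10 ± 1.60. Among the 24 named genes, ADC (-1.05), CAT5 (-0.41), SC-04 (1.40) and PK3 (1.26) took the opposite side by it.

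The most extreme probes of the comparison carry no listed gene. Probe Gm01326cDNA18kA had 4.13, 2.57 and 5.58 on the direct arrays and Gm08670cDNA18kA had 4.26, 2.24 and 5.13, both with replicate 2 lowest and none under 2. Their loop values were 4.07 ± 0.569 and 3.82 ± 0.566. At the other end, Gm13386cDNA18kA had -3.81, -2.78 and -3.15 and Gm14033cDNA18kA had -3.89, -3.03 and -2.31, with loop values of -3.24 ± 0.476 and -2.91 ± 0.428. All 4 stayed called without each replicate in turn.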

How the data were processed

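Per the labels' protocols, Trizol was used for extraction and aminoallyl-dUTP for indirect labelling with Cy3 or Cy5. The values the authors deposited, 1 log ratio for each probe on each array, were read as log2. Which channel is the numerator, the log base, background correction and normalization are not stated in the sources used here, and natural logs would scale every size without changing a test. No intensities were used, so the number of arrays limits the precision.

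Deposited values were turned to Cy5 minus Cy3 RNA on the reading that titles name the numerator first. Probes with at least 2 of 3 values in each of the 12 array types were fitted with 11 RNA differences and 1 dye term (R 4.3.3 and limma 3.58.1, with 7.56 prior and 24 residual degrees of freedom), after the code was tested on simulated data. The dye term assumes that each deposited array has 1 orientation; the labels also mention technical dye swaps, and whether such arrays were averaged is not known here. The direct arrays were tested against 0 with limma (4.01 prior and 2 residual degrees of freedom). The threshold was an adjusted p of 0.05.

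Gene names come from the platform's annotation, and 523 of 527 genes were updated through RefSeq's table of Glycine_max_v4.0. It leaves 18029 probes unlisted, and 13 with several genes were not named. Named were the 12 genes with the largest size on each side among called probes of 1 sign on the direct arrays, up to 2 genes a side from each pathway list, PDR12, GSTL3, XET1 and 2 unnamed probes a side. Apart from LHCP, list examples under 0.5 in size are given only as ranges, a limit set after the values were seen. Further called list members were also named after their values were seen. Members and lists were chosen with earlier results of these data known. Alternatives left out replicates or changed the dye term, scaling, centring, weights, prior, filter and correlation. Replicate numbers mark separate loops with shared extracts inside each, and arrays sharing an extract had a residual correlation of -0.195.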

Additional observations from a re-analysis of the deposited data

Results flagged for a closer look

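The difference between atrazine and bentazon at 8 h was unlike that at 4 h for 499 probes, tested as a difference of differences in the limma model. Among the genes named, these differences (8 h minus 4 h) were -1.79 for 4CL4, -1.68 for CHLH, -1.58 for F3H and -1.41 for CAB3, toward the GSTL3 side. Toward the PR-10 side they were 1.80 for BBI, 2.03 for NOD33, 2.10 for GSTU30 and 3.93 for PDR12. At 4 h the values were 0.65 for 4CL4, 0.61 for CHLH and 0.62 for F3H, and none of these passed the test (limma adjusted p = 0.203, 0.198 and 0.161). At 1 h CHLH (-1.29) and 4CL4 (-1.26) were already called on the GSTL3 side (limma adjusted p = 0.00683 and 0.0143), and F3H (-0.40) was not. Their differences between 8 h and 1 h were not called (limma adjusted p = 0.837 for CHLH and 0.93 for 4CL4). At 2 h 4CL4 was called on the PR-10 side at 1.09 (limma adjusted p = 0.0255). None of the 8 genes passed the test of this difference without replicate 1, where the model called no probe and 1514 had an unadjusted p under 0.05.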

How the results depend on the processing

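The 1066 calls of atrazine against bentazon numbered 277 to 673 with 1 replicate left out, 0 (2359 at an unadjusted p under 0.05) with each loop solved alone, 4729 with array weights, 421 by the indirect route and 472 with a size of at least 1; they numbered between 944 and 1274 under the others. The 499 calls against 4 h became 0 to 278 with 1 replicate left out (0 without replicate 1) and 2809 with array weights, which made 49.7% of them positive against 61.9%. The 1600 against 2 h became 326 to 1017, 82 with each loop alone and 3171 with array weights. The 632 against 1 h became 135 to 863, 0 with each loop alone (1678 unadjusted) and 2750 with array weights. The 5 calls on the direct arrays became 0 to 620 (0 without replicate 1, with 1406 unadjusted; 620 without replicate 3), 242 with scaled arrays (153 and 89 on the 2 sides), 964 with the spread of all 36 arrays and 0 with the loop mean subtracted (2359 unadjusted). Subtracting the loop mean is the same calculation as solving each loop alone, so these are not separate checks. Leaving out a replicate leaves fewer arrays, and solving loops alone leaves 3 values a probe. The cause of the other changes was not tested. The replicate block gave 949 calls against 1066, 399 against 499, 1500 against 1600 and 581 against 632; among single genes it ended the calls at 8 h of PM34 (positive probe), P89, SARK and BZIP117 and the 4 h steps of BBI and GSTU30, and no other. A robust prior ended those of GSTU21, PM34, P89 and the GSTU30 step, generalised least squares those of PM34, F3H and BZIP117, no dye term those of PM34 and BZIP117, and scaling the GSTU30 step. The side turned by the indirect route, where values were -1.05 for ADC, -0.41 for CAT5, 1.40 for SC-04, 1.26 for PK3, -0.45 for CA1, 1.29 for PPCK2, -0.26 for a GSTU30 probe, -0.21 for an APX1 probe, -1.05 for CHR1, 0.11 for F3H, 0.57 for KTI3, -0.38 for BMY1, -0.21 for VPE2 and -0.34 for SCAM-4. With 1 replicate left out BMY1 ran between -0.58 (without replicate 3) and 1.57, SS between -0.045 (without replicate 2) and 1.31 and SALI5-4A between -1.62 and 0.031 (without replicate 3), and array weights gave -0.054 for BMY1. Counting identical rows once and the indirect route were chosen after seeing the data, and the indirect route holds no dye term.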

Other observations

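Several genes outside the groups above had values between the herbicides that the text has not described. PPCK2, the kinase that regulates phosphoenolpyruvate carboxylase, had -1.17, -1.33 and -0.83 on the direct arrays, 3 values close together, and a loop value of -0.91 ± 0.25 (limma adjusted p = 0.0253), not called without replicate 1 (-0.87) or 2 (-0.71). Its substrate gene PEPC16 had -0.54 ± 0.21 and was not called. AS2 (0.92 ± 0.502), the cold gene SRC2 (1.24 ± 0.426), the calmodulin gene SCAM-4 (0.81 ± 0.287) and the chaperone gene PM37 (1.14 ± 0.402) lay on the PR-10 side without a call. SRC2 and SCAM-4 had direct values of 2.79 and 2.38 on replicate 3, against at most 0.50 and 0.28 on replicates 1 and 2. SUT1, a sucrose transporter, had -1.15, -0.76 and 0.28, and FAD3C, an omega-3 desaturase, -0.59, -0.37 and -0.74, neither called.

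In 810 sets, 1656 probes hold the same value as another probe on all 36 arrays. Counted once, 16263 tested rows remain and 1021 of the called ones. Among 220 probes of the named genes 20 belong to such sets, with probes of CAT5, BBI and NOD33 among them.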
